A study of Saccharomyces cerevisiae with 2 samples.

Results

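The 40 genes described here encode enzymes that build histidine, leucine, isoleucine, valine, lysine, tryptophan, chorismate, homoserine and threonine in budding yeast, Saccharomyces cerevisiae, together with GCN4, GCN1 and GCN2 of general amino acid control. They were chosen by a list of open reading frame identifiers that names pathways and no measured values, drawn up with earlier results of these data known, and made up 40 of 6207 gene features. All 40 had a value in both comparisons of the study. Genes of arginine synthesis and of sulfur amino acids were not among them.

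In yeast these pathways are switched on together when an amino acid runs short. The kinase Gcn2, activated on ribosomes with the help of Gcn1, phosphorylates translation initiation factor eIF2. This lowers general translation but lets ribosomes reach the start of the GCN4 coding sequence past short reading frames in its leader. Gcn4 is a transcription activator that binds upstream of genes in nearly all the pathways listed above. Because GCN4 is controlled largely at translation, its mRNA level is not a measure of its protein.

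The study compared RNA pairs on two-colour arrays. The first comparison set an msg5 deletion strain against wild type, which the labels name as BY4741, a haploid laboratory strain of mating type a. The parent of the deletion strain is not given in the sources used here. MSG5 encodes a dual-specificity phosphatase of mitogen-activated protein kinases. Both cultures grew untreated in YPD, a rich medium, at 24 °C for 2 h 30 min after dilution to an optical density of 0.2, and were collected 2 h later. The second comparison set the msg5 deletion with alpha factor, the mating pheromone, against the same deletion without it, so that MSG5 was missing from both RNAs. Its cultures were grown for 4 h before a further 90 min, in the treated culture with alpha factor at a concentration given as 50 mM. BY4741 is known to carry deletion alleles of HIS3, LEU2, MET15 and URA3, so it lacks a step of histidine and of leucine synthesis and takes both from the medium.

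The deposited log ratios are read here as base 2, which is less certain for the second comparison. Each comparison was deposited as 1 log ratio per feature, condensed by the authors from 4 arrays of 2 biological samples with swapped dyes. There is therefore no spread between replicates, and no difference below was tested. Precision is limited by the number of arrays. The direction is deletion over wild type in the first comparison, and MSG5, at -2.51 there, was below every other feature. In the second it is likely treated over untreated, since all 7 pheromone-induced genes used as a check lay above 0, between 0.36 and 2.38. Some views of error were available. Genes represented by several features, none of them a member, numbered 25 in the first comparison and 24 in the second. Between those features the log2 ratio differed by a median of 0.20 in the first comparison and 0.29 in the second. Such features share the same arrays, so this difference leaves out the spread between cultures. The features of marker genes deleted in BY4741, HIS3 and LEU2, had log2 ratios of 0.30 and 0.09 in the first comparison, and of 0.11 and 0.0042 in the second, where MET15 stood at -0.50. These values are a view of error only if both RNAs lack the sequence that the features detect, which is not known here for either strain. An Arabidopsis control feature stood at 0.19 and 0.12.

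In the msg5 deletion most of the 40 genes lay slightly above other genes, and few were far from them. Their median log2 ratio was 0.05, with the middle 50% between -0.04 and 0.22, against -0.07, -0.21 and 0.07 for the 5268 other features measured. The genes farthest from 0 were GCN1, 2.42-fold lower in the deletion, and ARO1, 1.71-fold higher. LYS1, LYS2 and LEU4 followed on the high side, each between 1.43-fold and 1.46-fold higher.

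No member was at least 2-fold higher, where 0.829% of all features were, and 1 was at least 2-fold lower, where 0.283% were. At 1.5-fold, a log2 ratio of 0.58 or more, 1 member was higher and 1 lower, against 2.84% and 3.22% of all features. These counts are close to the background. The offset between members and other features lay in the bulk of the distribution instead. Of the 40, 32 lay above the median of all features, where 49.9% of features do, and 17 lay in the highest 25%, where the share of all features was 25.2%. Only 4 lay in the lowest 25% (background 25.2%): GCN1, HIS6, HIS2 and THR1. The offset between the medians was 0.11, and single features of 1 gene differed by a median of 0.20. The latter is a spread of single features and not the error of a median over 40 genes, which was not measured. Of the 40 members, 15 lay farther from 0 than that 0.20, close to the 39.6% of all features that did.

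**Figure D1:**
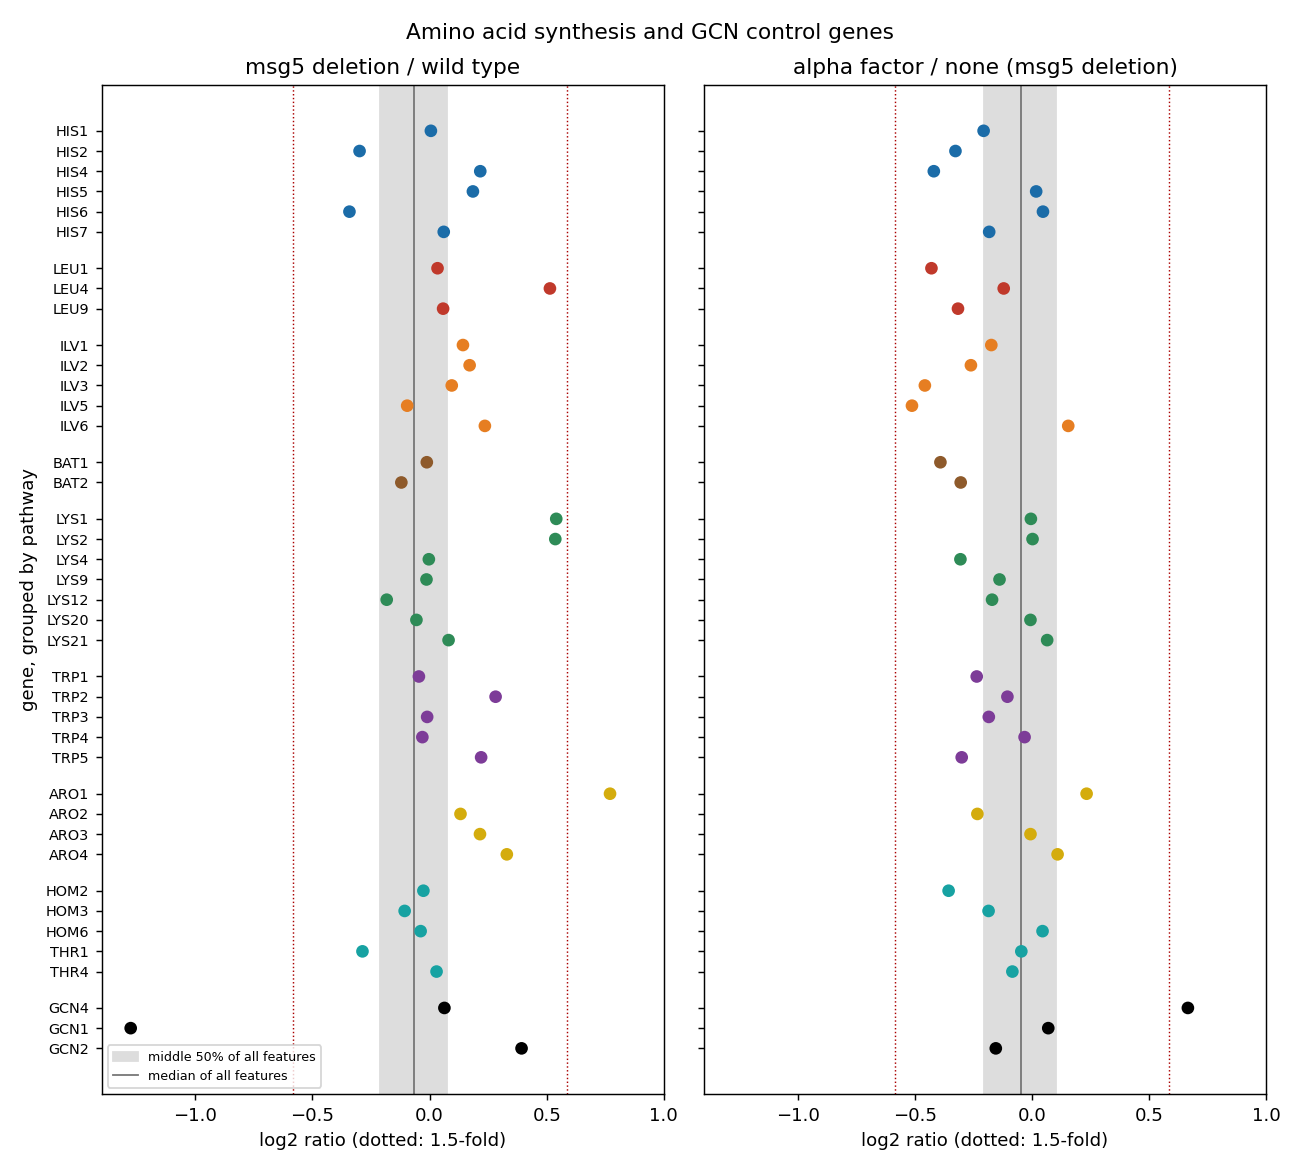
Log2 ratio of each of the 40 genes (points, coloured by pathway) in the msg5 deletion against wild type (left) and with alpha factor against without (right), 1 deposited value per gene. The grey band is the middle 50% of all gene features, the line their median and the dotted lines 1.5-fold. GCN1 lies far to the left in the deletion at -1.28, and GCN4 lies past 1.5-fold with alpha factor at 0.67.

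With alpha factor the median of these genes lay slightly below that of other genes, with 15 of 40 above the median of all features. Their median log2 ratio was -0.16, with the middle 50% between -0.30 and -0.0025, against -0.05, -0.20 and 0.11 for 4837 other features. GCN4 was 1.59-fold higher with alpha factor (log2 ratio 0.67), and the lowest members were ILV5 (-0.51), ILV3 (-0.46), LEU1 (-0.43) and HIS4 (-0.42).

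None of the 40 reached 2-fold in either direction, where 0.410% of all features were higher and 0.369% lower by that much. At 1.5-fold GCN4 was higher (background 1.80%) and none was lower (background 3.32%). Below the median of all features lay 25 members, where 50.0% of features do. In the lowest 25% lay 15 members (background 25.0%), and 4 lay in the highest 25% (background 25.0%): GCN4, ARO1, ILV6 and ARO4. The offset of the medians was -0.12. Between single features of 1 gene the median difference was 0.29, which again is not the error of a median over 40 genes. Farther from 0 than that 0.29 lay 12 members, of which 11 were on the low side, against 22.8% of all features in either direction. Folds in this comparison hold only if its values are base 2 logarithms, which is less certain than for the deletion. If the direction is opposite to the one taken here, every sign in it turns.

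**Figure D2:**
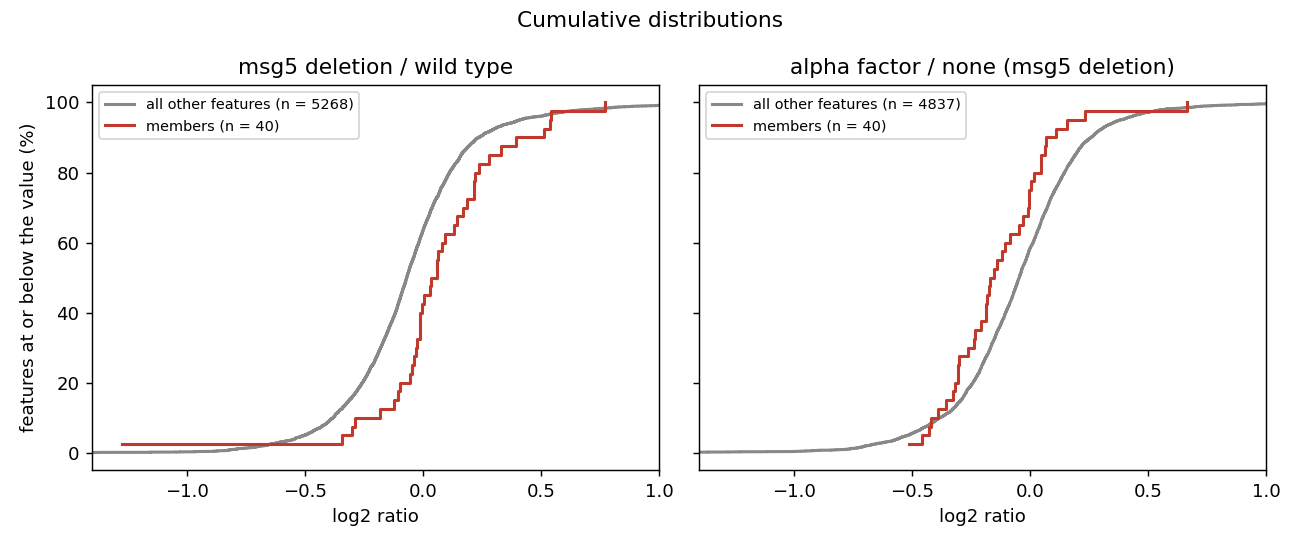
Share of features at or below each log2 ratio for the 40 members (red) and all other features (grey), for the deletion (left) and for alpha factor (right). The red curve lies to the right of the grey one over its middle part on the left, with medians of 0.05 and -0.07, and to its left on the right, with medians of -0.16 and -0.05.

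The regulators of general amino acid control differed from one another more than the members of any enzyme group. GCN1 (YGL195W), whose product carries the starvation signal to Gcn2, had a log2 ratio of -1.28 in the deletion, with 7 of 5308 features lower. With alpha factor it stood at 0.07, inside the middle 50% of all features. GCN2 (YDR283C), the eIF2 kinase, lay on the other side in the deletion at 0.39, and at -0.15 with alpha factor. GCN4 (YEL009C), the activator, was near the other genes in the deletion at 0.06 and was the highest member with alpha factor, at 0.67, with 71 of 4877 features higher. GCN1 and GCN2 are long genes, of 8019 and 4980 bases in the R64 assembly. The next member above GCN1 in the deletion was HIS6 at -0.34, and the next below GCN4 with alpha factor was ARO1 at 0.23, so each stood clear of the other 39 by more than the median difference between features of 1 gene. Such differences reached 0.61 in the deletion and 0.68 with alpha factor, which the gap above GCN1 exceeds and the gap below GCN4 does not. Among chromosomal neighbours, DSD1 beside GCN1 had values of 0.04 and 0.08, and MRX10 and DPP1 beside GCN2 had -0.10 and -0.12 in the deletion.

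The chorismate genes, which make the common precursor of the aromatic amino acids, were the enzyme group with the highest median in the deletion, 0.27, and all 4 lay in the highest 25% of features. ARO1 (YDR127W), which encodes a multifunctional protein carrying out the middle steps, had a log2 ratio of 0.77, above all but 87 features. ARO4 (YBR249C) and ARO3 (YDR035W), isozymes of the first step, stood at 0.33 and 0.22, and ARO2 (YGL148W), chorismate synthase, at 0.13. With alpha factor the group was spread over both sides: ARO1 and ARO4 stood at 0.23 and 0.11, ARO3 at -0.0060 and ARO2 at -0.23, with a group median of 0.05. ARO1 was thus the highest enzyme gene in both comparisons. Its neighbours SWF1 and MTC5 had values of -0.09 and -0.04 in the deletion.

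Downstream of chorismate, the tryptophan genes lay near the other members. In the deletion all 5 lay above the median of all features, with a group median of -0.010. TRP2 (YER090W) of anthranilate synthase and TRP5 (YGL026C), tryptophan synthase, were the highest at 0.28 and 0.22. TRP3 (YKL211C), the partner of Trp2, was at -0.010, TRP4 (YDR354W), a phosphoribosyltransferase, at -0.03 and TRP1 (YDR007W), an isomerase, at -0.05. All 5 were below 0 with alpha factor, where about 58% of all features were. In the lowest 25% of features lay 2 of the 5 (background 25.0%). TRP5 was the lowest at -0.30, and TRP4 the highest at -0.03, above the median of all features. TRP1, TRP3 and TRP2 lay between, at -0.24, -0.18 and -0.10.

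Branched-chain synthesis makes leucine, isoleucine and valine. With alpha factor, of its 10 genes 9 lay below 0, where about 58% of all features did. In the lowest 25% of features lay 7 (background 25.0%), and the median of the 10 was -0.31. The other 27 enzyme genes had a median of -0.10, with 8 in the lowest 25%, a share near the background. In the deletion the 10 genes had a median of 0.08, and 5 were in the highest 25% (background 25.2%). Pooling the leucine, isoleucine-valine and transaminase genes into these 10 was not planned, and their difference from the other enzyme genes was not tested.

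Among the genes shared by isoleucine and valine synthesis, ILV5 (YLR355C), acetohydroxyacid reductoisomerase, had the lowest value of any member with alpha factor, -0.51, and stood at -0.10 in the deletion. ILV3 (YJR016C), dihydroxyacid dehydratase, had -0.46 and 0.09 in the same order. ILV2 (YMR108W), the catalytic subunit of acetolactate synthase, stood at -0.26 with alpha factor and 0.17 in the deletion. ILV6 (YCL009C), the regulatory subunit of the same enzyme, was the one branched-chain gene above 0 with alpha factor, at 0.16, and stood at 0.24 in the deletion. The subunit genes thus lay 1 on each side of the median with alpha factor and both above it in the deletion. ILV1 (YER086W), threonine deaminase, which starts the isoleucine branch, had -0.17 with alpha factor and 0.14 in the deletion.

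In the leucine branch LEU4 (YNL104C), the main isopropylmalate synthase, had a log2 ratio of 0.51 in the deletion, whereas its isozyme gene LEU9 (YOR108W) stood at 0.06 and LEU1 (YGL009C), isopropylmalate isomerase, at 0.03. All 3 were below 0 with alpha factor, where about 58% of all features were. LEU4 stood at -0.12, LEU9 at -0.32 and LEU1 at -0.43. The transaminases that complete the branched chains were close to each other. BAT1 (YHR208W), the mitochondrial form, had -0.012 in the deletion and -0.39 with alpha factor, and BAT2 (YJR148W), the cytosolic form, had -0.12 and -0.30.

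Lysine is made in yeast through aminoadipate, and its 7 genes differed in size of change in the deletion. Of the 7, 6 lay above the median of all features (background 49.9%) and 3 in the highest 25% (background 25.2%). LYS1 (YIR034C), saccharopine dehydrogenase of the last step, and LYS2 (YBR115C), aminoadipate reductase, had almost equal log2 ratios of 0.54 and 0.54. The other 5 lay between -0.18 and 0.08, and the group median was -0.0029. These were LYS21 (YDL131W) at 0.08 and LYS20 (YDL182W) at -0.06, isozymes of homocitrate synthase, LYS4 (YDR234W), homoaconitase, at -0.0029, LYS9 (YNR050C), the other saccharopine dehydrogenase, at -0.013, and LYS12 (YIL094C), homoisocitrate dehydrogenase, at -0.18. With alpha factor the lysine genes had the group median nearest to 0, -0.0061. LYS2 stood at 0.0028, LYS1 at -0.0043, LYS20 at -0.0061 and LYS21 at 0.07. LYS9 and LYS12 were at -0.14 and -0.17, and LYS4 was the only one in the lowest 25%, at -0.31.

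Histidine genes were spread widely in the deletion, with 2 of 6 in the highest 25% and 2 in the lowest. HIS4 (YCL030C), a multifunctional enzyme and a classical Gcn4 target, and HIS5 (YIL116W), an aminotransferase, stood at 0.22 and 0.19. HIS7 (YBR248C), an amidotransferase, was at 0.06 and HIS1 (YER055C), which carries out the first step, at 0.0058. HIS2 (YFR025C), a phosphatase, and HIS6 (YIL020C), an isomerase, lay low at -0.30 and -0.34. With alpha factor HIS4 had the lowest value of the group, -0.42, followed by HIS2 at -0.33, HIS1 at -0.21 and HIS7 at -0.18. HIS5 and HIS6 were just above 0, at 0.02 and 0.05. The group medians were 0.03 in the deletion and -0.19 with alpha factor.

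None of the 5 homoserine and threonine genes lay in the highest 25% of features in the deletion, and their median was -0.04. THR4 (YCR053W), threonine synthase, was their highest at 0.03, followed by HOM2 (YDR158W), a dehydrogenase of aspartate semialdehyde, at -0.03 and HOM6 (YJR139C), homoserine dehydrogenase, at -0.04. HOM3 (YER052C), the aspartate kinase that opens the pathway, stood at -0.11 and THR1 (YHR025W), homoserine kinase, at -0.29. With alpha factor HOM2 was the lowest at -0.36 and HOM6 the highest at 0.05. HOM3, THR4 and THR1 lay between, at -0.18, -0.08 and -0.05.

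**Figure D3:**
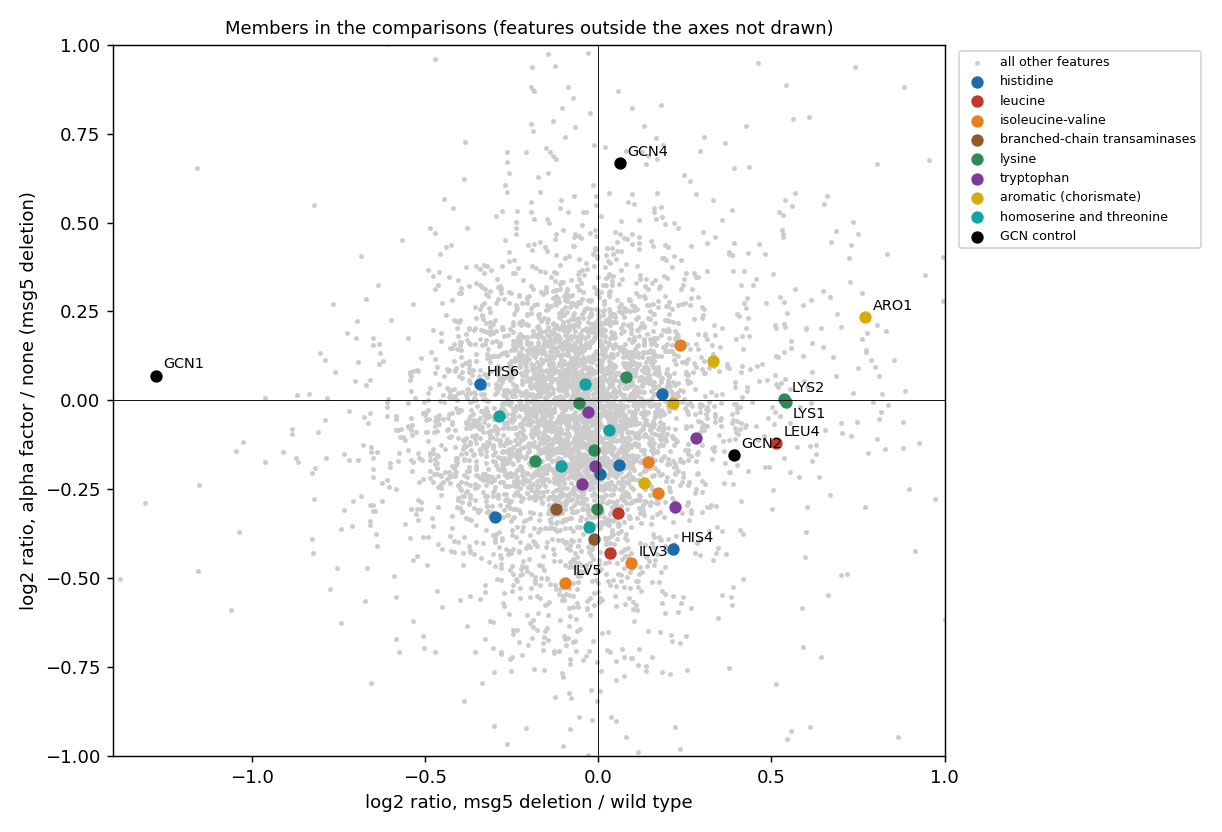
Log2 ratio in the deletion comparison (horizontal) and with alpha factor (vertical) for the 40 members, coloured by pathway, over all other features (grey); features beyond the axes are not drawn. GCN1, GCN4 and ARO1 stand apart from the main cloud of members, at -1.28 and 0.07, 0.06 and 0.67, and 0.77 and 0.23.

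The list holds 4 pairs of isozymes, whose related sequences can share signal on an array. LEU4 and LEU9 differed by 0.46 in log2 in the deletion and by 0.20 with alpha factor, the former more than the median of 0.20 between features of 1 gene but less than their largest difference, 0.61. LYS20 and LYS21, ARO3 and ARO4, and BAT1 and BAT2 differed by 0.11 to 0.14 in the deletion and by 0.07 to 0.12 with alpha factor. These 3 pairs were closer than the median difference between features of 1 gene, and no difference within them was tested.

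Some members lie beside each other on a chromosome or beside genes with large values, and the following examples were picked after their values were seen. HIS7 and ARO4 are neighbours, with 0.06 and 0.33 in the deletion and -0.18 and 0.11 with alpha factor. HIS5, at 0.19 and 0.02, lies beside PRM5, a gene induced by pheromone, at 1.5 and 1.02. LYS2, at 0.54 in the deletion, lies beside the transketolase gene TKL2 at -1.84. BAT1, at -0.012 in the deletion, lies beside CRG1 at 1.35, and LEU9, at 0.06, beside RGS2 at 0.99. LEU1 was low with alpha factor at -0.43, and so was its neighbour PMA1, of the main plasma membrane proton pump, at -0.95.

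Over all features, gene length was related to the alpha factor values and hardly to those of the deletion. Over 4622 features, which are not independent replicates, Spearman's rho with length was -0.22 with alpha factor, and it was 0.04 over 4995 features in the deletion. Members had a median length of 1305 bases, against 1245 for other features, and none fell in the shortest 20% of genes, under 675 bases, where other features had a median of 0.05 with alpha factor. Against the 1329 other features in the middle 50% of the members' lengths, from 1113 to 1826 bases, whose median was -0.12, the offset of all 40 members was -0.04 in place of -0.12, and the 21 members of those lengths had a median of -0.17. After adjustment for length by a linear fit the offset was -0.08, and after adjustment for row order -0.13. In the 20% of genes from 1041 to 1476 bases, 17 members had a median of -0.05 against -0.10 for other features there, so they lay on the high side. In the next 20%, up to 2127 bases, 11 members had -0.18 against -0.13. From 675 to 1041 bases 6 members had -0.08 against -0.0065, and above 2127 bases 6 had -0.08 against -0.07. Without the 10 branched-chain genes the offset was -0.05. In the deletion the offset of 0.11 was 0.11 against features of like length too, and 0.09 without the branched-chain genes. That offset was uneven over length. Members from 675 to 1041 bases had a median of -0.02 against -0.07 for other features, and those up to 1476 bases -0.013 against -0.07. From 1476 to 2127 bases the medians were 0.09 and -0.06, and above 2127 bases, with 6 members, 0.30 and -0.05. The part of length in these offsets was not tested.

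**Figure D4:**
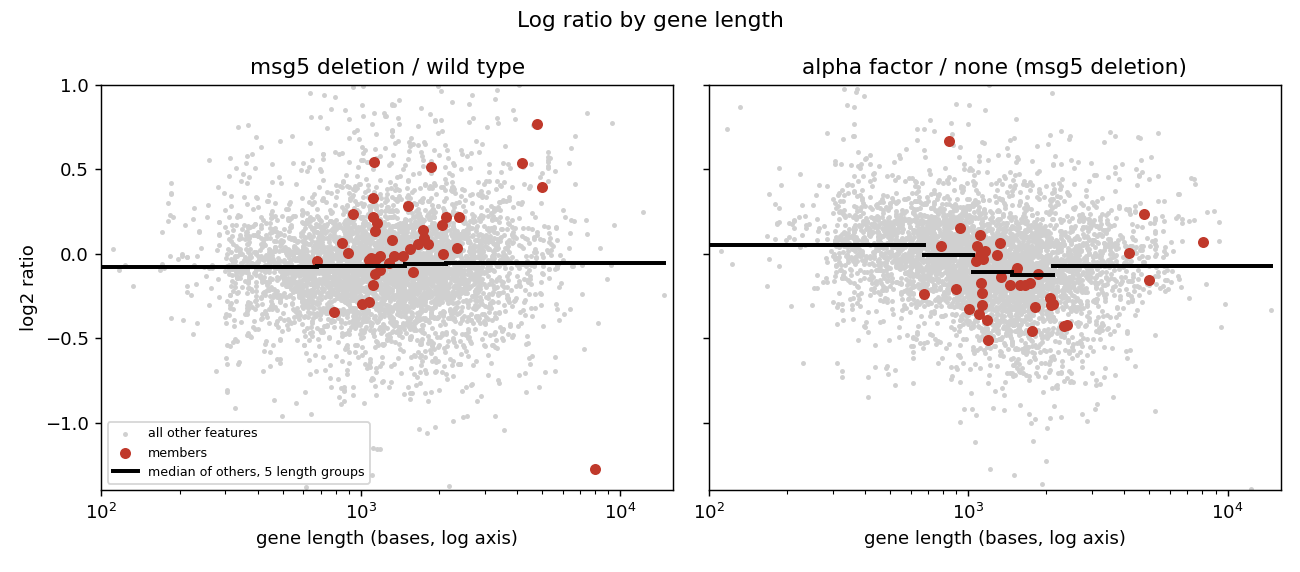
Log2 ratio by gene length (bases, log axis) for the members (red) and all other features (grey), for the deletion (left) and for alpha factor (right); black bars are medians of other features in 5 length groups of equal size. The bars are almost level on the left, from -0.08 to -0.05, and step down on the right from 0.05 for the shortest genes to -0.13 from 1476 to 2127 bases.

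Related genes outside the list were set beside it. Of 12 genes that control GCN4 translation, such as subunits of eIF2 and of its exchange factor, 11 were measured in the deletion. None reached 1.5-fold higher (background 2.84%) or lower (background 3.22%). Their values ran from -0.27 to 0.25, with a median of -0.12. With alpha factor 1 of 12 was at least 1.5-fold lower (background 3.32%) and none higher (background 1.80%). The 1 was GCD6, the catalytic subunit of the exchange factor, at -0.90. No measured gene of this list stood as low in the deletion as GCN1.

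Of 8 regulators of single pathways or of Gcn4, 7 and 6 were measured and none reached 1.5-fold in either comparison. Of all features, 2.84% were higher and 3.22% lower by that much in the deletion, and 1.80% and 3.32% with alpha factor. With so few genes, none past the fold is near the background. Their medians were -0.06 in the deletion and 0.15 with alpha factor. Another list held 24 genes of amino acid metabolism, such as those for serine, proline, glutamate and asparagine. It also took in LYS5 of lysine synthesis, later aromatic genes such as TYR1 and PHA2, and CHA1, a deaminase that breaks down serine. In the deletion 23 were measured, with none past 1.5-fold, where 2.84% of all features were higher and 3.22% lower. Of the 23, 12 lay in the highest 25% (background 25.2%), and the median was 0.11. With alpha factor 2 of 24 were lower by 1.5-fold and none higher, where 3.32% and 1.80% of all features were. The 2 were ASN2, an asparagine synthetase, at -0.72 and SHM2, a serine hydroxymethyltransferase, at -0.71. In that comparison 12 lay in the lowest 25%, and the median was -0.20. These genes thus had medians on the same side of all features as the members in each comparison. Arginine synthesis genes did so in the deletion, with a median of 0.18 over 5 genes, but not with alpha factor, at 0.07 over 4. The difference of these lists from other features was not tested.

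**Figure D5:**
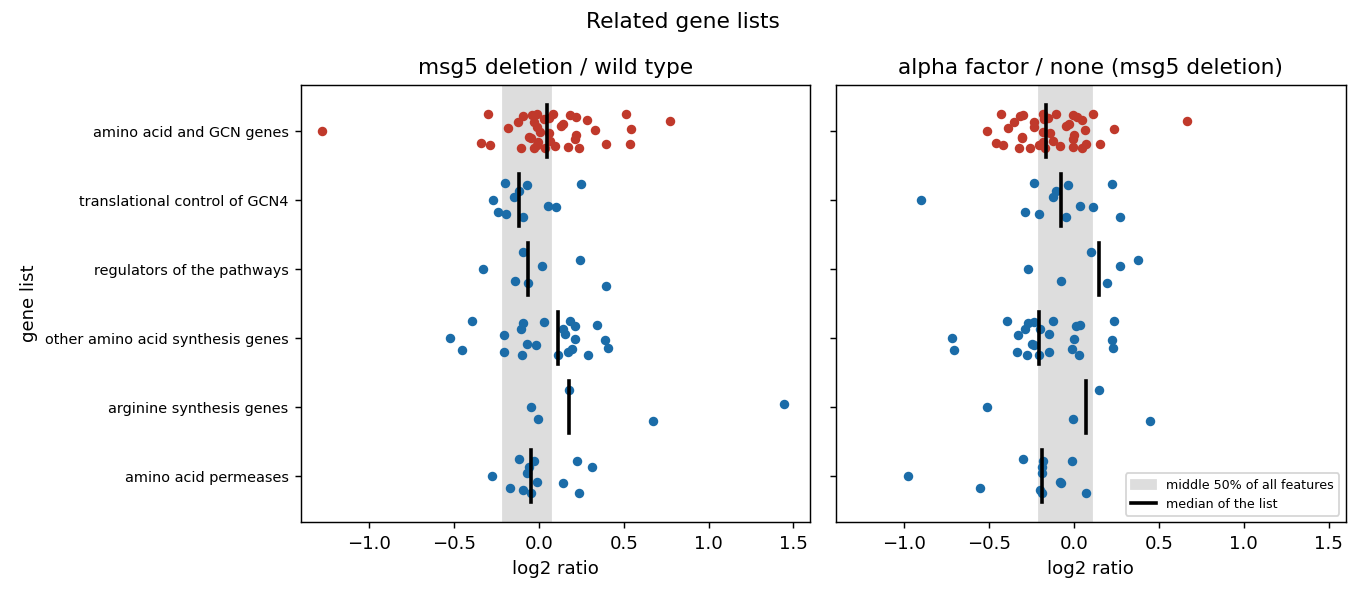
Log2 ratios of the 40 members (red) and of related gene lists (blue) for the deletion (left) and for alpha factor (right); points are genes, offset vertically for visibility, black bars list medians and the grey band the middle 50% of all features. The list labelled other amino acid synthesis genes has medians of 0.11 and -0.20, near those of the members at 0.05 and -0.16. It also holds LYS5 and some genes of aromatic synthesis and of amino acid breakdown.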

How the data were processed

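RNA of msg5 deletion and wild type yeast was hybridised to two-colour arrays, scanned with GenePix Pro 5.0, per the labels. The authors condensed 4 arrays per comparison into the deposited log2 ratios. The normalization, any filter and the build were not stated in the labels. The table held 6209 rows, 2 of them controls. Features without a value made up 14.5% (deletion) and 21.4% (alpha factor). The log base came from the numbers themselves. In the deletion, 100% of 5310 values match ratios with steps of 0.001 under base 2 (7.52% by chance). With alpha factor 7.97% do, so its base was taken from the other column.

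Features were matched to R64 names by locus tag (5654) or older name (57), and 496 were not. R64 lengths may differ from those of the array's build. Folds of 2 and 1.5 were used, and positions among all features (median, highest and lowest 25%) were added after seeing the data. The pool of all branched-chain genes was not planned. No tests were run. Alternatives were centring, a running median over 401 rows, a linear fit on log2 length, left-out pathways, sign and log base. Scripts (Python 3.11.15, pandas 2.3.3) were tested on simulated data. All 40 members are named, and genes of other lists past 1.5-fold; neighbouring genes and strain markers were named after their values were seen. Members and lists were chosen with earlier results of these data known. One listed gene is not reported here.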

Additional observations from a re-analysis of the deposited data

How the results depend on the processing

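Medians of the 40 genes kept their sign but not their size under centring and adjustment. In the deletion 0.05 became 0.11 after centring and 0.10 after adjustment for row order or for gene length, and the mean was 0.06. With alpha factor -0.16 became -0.12, -0.13 and -0.08 in that order, and the mean was -0.13. These shifts and the medians themselves are smaller than the median difference between single features of 1 gene. That difference does not measure the error of a median over 40 genes. Leaving out each pathway or the farthest member gave 0.018 to 0.06 in the deletion and -0.18 to -0.14 with alpha factor. Turning the sign with alpha factor turned its median to 0.16, with 0 genes at least 1.5-fold higher and 1 lower. Counts past a fold rested on single genes. In the deletion, genes at least 1.5-fold higher numbered 3 after centring (ARO1, LYS1 and LYS2), 3 after adjustment for row order (ARO1, LYS1 and LEU4), 2 after adjustment for length (ARO1 and LYS1) and 0 without the chorismate genes. Without GCN1, GCN2 and GCN4, 0 were 2-fold lower or 1.5-fold lower in the deletion, and 0 were 1.5-fold higher with alpha factor. Read as base 10, 1 gene would be 2-fold higher and 10 2-fold lower with alpha factor, and 2 and 18 at 1.5-fold. Read as natural logarithms, 4 would be 1.5-fold lower. Limiting the features to those measured in both comparisons removes no member and so tests nothing. Promoter motif shares and protein identities were planned and not run, since no sequences were used. No paired analysis was possible because each comparison has 1 value per gene.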

Other observations

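Arginine and permease genes, which the list leaves out, were read as a further view of amino acid metabolism. Of 8 arginine synthesis genes listed here, ARG5,6 was not matched by name to a feature and so was not read. In the deletion 5 of the list had a value. Of these 5, 2 were at least 1.5-fold higher, where 2.84% of all features were, and none lower (background 3.22%). They were ARG1, argininosuccinate synthetase, at 1.44 and ARG4, argininosuccinate lyase, at 0.67. None of 4 reached 1.5-fold higher (background 1.80%) or lower (background 3.32%) with alpha factor, where ARG4 stood at 0.45 and ARG1 had no value.

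Of 14 amino acid permease genes, 13 were measured in the deletion, where none reached 1.5-fold higher (background 2.84%) or lower (background 3.22%). The median there was -0.05. With alpha factor 11 of 12 lay below 0, where about 58% of all features did, and the median was -0.19. Of the 12, 3 lay in the lowest 25% of features (background 25.0%) and none in the highest 25%. At least 1.5-fold lower was 1 of them (background 3.32%): GAP1, the general permease, at -0.98. With 1 value per gene none of these was tested. Of the alpha-cell markers, MF(ALPHA)1 and STE3 had no value, and SAG1 and MF(ALPHA)2 had values of 1.17 and 0.42 in the deletion and 0.34 and 0.37 with alpha factor. Of the a-cell markers, MFA1 had 1.03 and 1.34, MFA2 -0.10 and 0.74, STE2 0.11 and 0.25, and BAR1 0.65 and 0.55.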
